A study of Mus musculus with 10 samples.

Results

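Acetylcholine receptors were represented by 9 mouse genes taken by name from the 55536 genes of the count table: the muscarinic receptor genes Chrm1, Chrm2, Chrm3 and Chrm4, and the nicotinic subunit genes Chrna3, Chrna4, Chrna5, Chrna7 and Chrnb2. The names were chosen with earlier results of these data known, 12 further genes of the family are described apart, and all 9 passed the filter on low counts that left 20301 genes for testing. Ribosome-bound RNA had been collected by translating ribosome affinity purification (TRAP), in which a tagged ribosomal protein is made only in cells with Cre recombinase and is then pulled down with its attached mRNA. Mice carried Cre under Il17rb (3 libraries), Il17ra (3 libraries) or Il17rc (4 libraries), 3 genes for interleukin-17 receptor subunits. All groups received AAV5-EF1α-Flex-EGFPL10a in the S1DZ of the primary somatosensory cortex, and tissue was taken after 4 weeks. The Flex construct is read from the general EF1α promoter once Cre has turned it round, so by design the Cre driver sets which infected cells can be tagged. The labels give no strain, age, sex or number of animals per library, and do not tell if each replicate came from its own mice, so a p-value covers only the spread among these libraries, which may be technical.

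Acetylcholine reaches the cortex mainly from basal forebrain axons and acts there through both receptor classes. Muscarinic receptors are G protein-coupled: M1 and M3, the products of Chrm1 and Chrm3, act through Gq and phospholipase C, while M2 and M4, the products of Chrm2 and Chrm4, act through Gi/o, which lowers cAMP and opens inward-rectifier potassium channels. Nicotinic receptors are ion channels of 5 subunits, of which the cortex mainly holds heteromers of α4 and β2, at times with α5, and homomers of α7.

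The libraries held 39692925 to 165844244 counts, with the highest total in Il17ra-Cre library 3, and 21205 to 24790 genes had a count. Of the driver transcripts, Il17rc was called lower in Il17rb-Cre than in both other groups, and the difference between those did not pass, at 1.89 ± 1.15 CPM in Il17rb-Cre, 29.4 ± 10.4 in Il17ra-Cre and 28.3 ± 8.37 in Il17rc-Cre (CPM, counts relative to library size after TMM scaling; mean ± SD). Il17rb, in contrast, was at 0.714 ± 0.138 CPM in Il17rb-Cre, 2.26 ± 1.31 in Il17ra-Cre and 1.27 ± 1.13 in Il17rc-Cre, with no called difference. Il17ra was at 26.5 ± 7.31 CPM in Il17rb-Cre, 18.5 ± 2.53 in Il17ra-Cre and 18.8 ± 2.97 in Il17rc-Cre, again with no called difference. The pull-downs also differed in their mix of cells. The 12 pan-neuronal markers summed to 17340 to 17677 CPM in Il17rb-Cre, 5451 to 6908 in Il17ra-Cre and 4273 to 5129 in Il17rc-Cre, and the 12 astrocyte markers to 652 to 668 CPM in Il17rb-Cre, 7069 to 13759 in Il17ra-Cre and 11617 to 18177 in Il17rc-Cre, with none of either list at 0 in any library. Il17ra-Cre libraries 1 and 2 stood apart from library 3 in oligodendrocyte markers, with 45457, 31037 and 5417 CPM over 10 genes. Rpl10a, the gene of the tagged ribosomal protein, was at 602 to 670 CPM in Il17rb-Cre, at 58.7, 70.9 and 679 CPM in Il17ra-Cre libraries 1 to 3, and at 191 to 267 CPM in Il17rc-Cre, and the part of these differences in the results below was not tested.

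Receptor transcripts were higher in Il17rb-Cre than in both other groups under TMM scaling, a direction that did not hold against Il17rc-Cre for 5 of the 9 when libraries were scaled on neuronal markers, as described further on. Of the 9 genes, 7 were higher in Il17rb-Cre than in Il17ra-Cre at an edgeR adjusted p under 0.05 (Chrm1, Chrm2, Chrm3, Chrm4, Chrna4, Chrna7 and Chrnb2), and 6 were higher than in Il17rc-Cre (the same genes without Chrna7). The background was wide: 40.7% of all tested genes were called in the first comparison, 16.4% as higher and 24.4% as lower, and 39.7% in the second, 17.7% as higher and 21.9% as lower. The 9 genes had a median log2 fold change of 2.18 against Il17ra-Cre and 1.79 against Il17rc-Cre, where all tested genes had medians of -0.09 and 0.02. Both comparisons use the same Il17rb-Cre libraries and are not independent. Where libraries of a gene are said not to overlap between groups, this describes its points only. It is not set against the share of all tested genes without overlap. In pooled tissue of this kind, fewer cells of a type and less RNA per cell cannot be told apart.

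**Figure D1:**
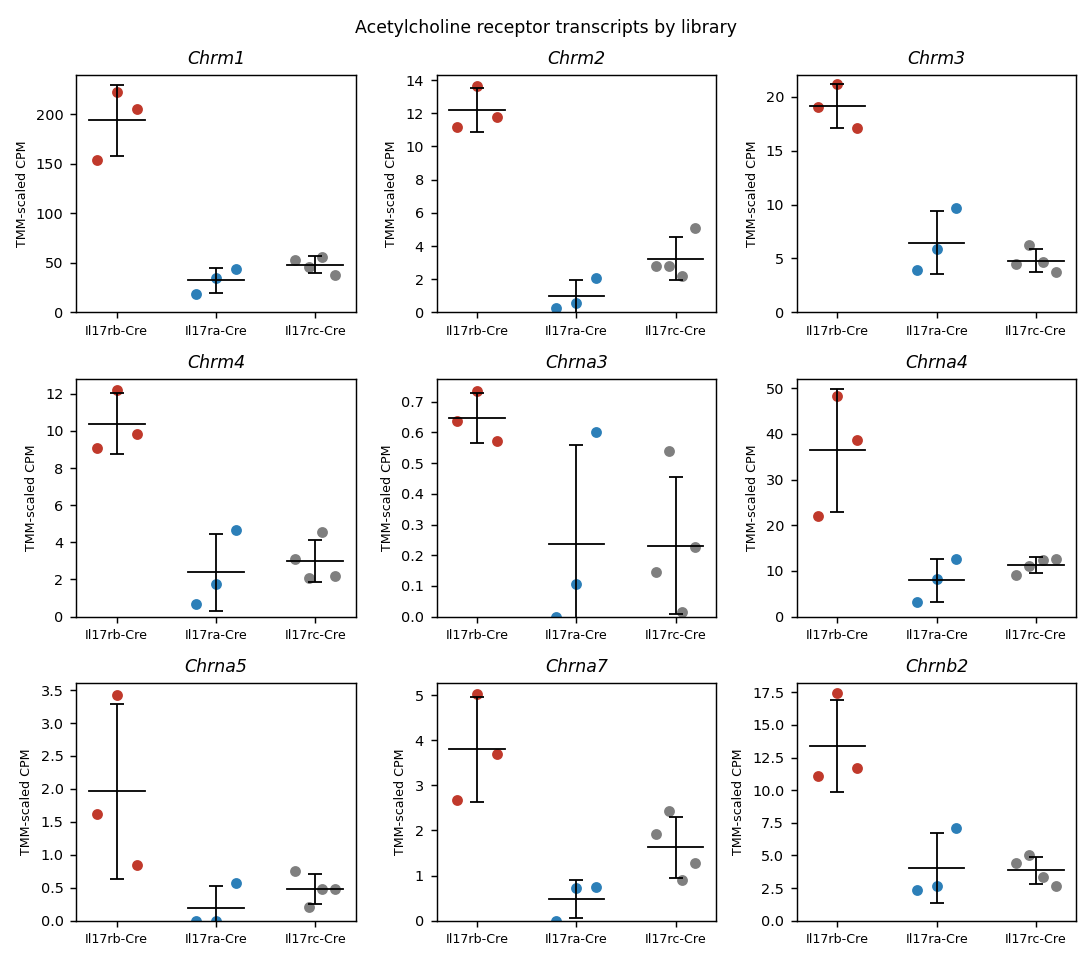
TMM-scaled CPM (vertical axis, linear, from 0) of the 9 receptor genes by Cre group, with 1 point per library, a horizontal line at the group mean and bars of 1 SD that are cut at 0. All Il17rb-Cre points lie above all Il17rc-Cre points in every panel, and above all Il17ra-Cre points except for Chrna3. This is not set against the share of all tested genes without overlap.

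Chrm1 (ENSMUSG00000032773, GRCm38 chromosome 19, 8663789 to 8683587, plus strand) encodes M1, the main Gq-coupled muscarinic receptor of cortical pyramidal cells. It was at 154, 223 and 205 CPM in Il17rb-Cre libraries 1 to 3, at 18.7, 34.5 and 43.7 CPM in Il17ra-Cre libraries 1 to 3, and at 53.0, 45.7, 56.3 and 37.3 CPM in Il17rc-Cre libraries 1 to 4. The lowest Il17rb-Cre library was well above the highest of the others, whose ranges overlapped each other. The log2 fold change was 2.59 ± 0.31 (SE) against Il17ra-Cre, 6.0-fold (edgeR adjusted p = 1.69e-04), and 2.01 ± 0.27 against Il17rc-Cre, 4.04-fold (edgeR adjusted p = 3.25e-04). Both calls held in all 10 fits that left out 1 library each. The gene shares 329 exon bases with Gm22820, which had no count in any library.

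Chrm3 (ENSMUSG00000046159, chromosome 13, 9875486 to 10360847, minus strand) encodes M3, the other Gq-coupled receptor measured. It was at 19.1, 21.2 and 17.1 CPM in Il17rb-Cre libraries, at 3.91, 5.84 and 9.66 CPM in Il17ra-Cre libraries, and at 4.47, 6.27, 4.66 and 3.74 CPM in Il17rc-Cre libraries. No Il17rb-Cre library overlapped with either other group, and Il17ra-Cre library 3 was the highest of the remaining 7. The log2 fold change was 1.56 ± 0.33 against Il17ra-Cre (edgeR adjusted p = 0.00438) and 2.00 ± 0.31 against Il17rc-Cre (edgeR adjusted p = 6.80e-04). Against Il17ra-Cre it was the smallest called difference of the 9 genes.

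Chrm2 (ENSMUSG00000045613, chromosome 6, 36388084 to 36528414, plus strand) encodes the Gi/o-coupled M2, known as an autoreceptor on cholinergic terminals and as a receptor of some cortical interneurons. It was at 11.1, 13.7 and 11.8 CPM in Il17rb-Cre libraries, at 0.243, 0.584 and 2.09 CPM in Il17ra-Cre libraries, and at 2.82, 2.77, 2.22 and 5.11 CPM in Il17rc-Cre libraries. The 3 groups did not overlap, with Il17rb-Cre highest and Il17ra-Cre lowest. The log2 fold change of 3.60 ± 0.68 against Il17ra-Cre (12.1-fold, edgeR adjusted p = 0.00229) was the largest of the 9 genes and above that of 99.3% of all tested genes. Against Il17rc-Cre it was 1.92 ± 0.58 (edgeR adjusted p = 0.0237), a call that was lost in 6 of the 10 fits without 1 library (Il17rb-Cre 1, 2 or 3, or Il17rc-Cre 1, 2 or 3), with log2 fold changes there of 1.77 to 1.93. The Il17ra-Cre values rest on 9, 22 and 357 counts. Of its exon bases 2.35% are shared with 9330158H04Rik, which averaged 5.38 CPM in Il17rb-Cre, 0.470 in Il17ra-Cre and 0.656 in Il17rc-Cre, and reads in that stretch cannot be told apart.

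Chrm4 (ENSMUSG00000040495, chromosome 2, 91927249 to 91928688, plus strand) encodes M4, which couples to Gi/o and is best known from striatal projection neurons. It was at 9.07, 12.2 and 9.85 CPM in Il17rb-Cre libraries, at 0.674, 1.78 and 4.67 CPM in Il17ra-Cre libraries, and at 3.11, 2.10, 4.56 and 2.21 CPM in Il17rc-Cre libraries. The Il17rb-Cre libraries were above all others, and Il17ra-Cre spanned the whole range of Il17rc-Cre. The log2 fold change was 2.11 ± 0.60 against Il17ra-Cre (edgeR adjusted p = 0.0182) and 1.79 ± 0.54 against Il17rc-Cre (edgeR adjusted p = 0.0244). The first call was lost without Il17ra-Cre library 2 or Il17rb-Cre library 2, at 1.94 and 1.99. The second was lost without Il17rb-Cre library 1, 2 or 3 or Il17rc-Cre library 1, 2 or 4, at 1.60 to 1.83. Striatal projection neuron markers were uneven, with 9 genes summing to 526 to 582 CPM in Il17rb-Cre, 86.8 to 513 in Il17ra-Cre and 175 to 1928 in Il17rc-Cre, and their part in the Chrm4 values was not tested.

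The promoters of Chrm4 and Chrnb2 are shown as examples of genes called higher in Il17rb-Cre in both comparisons. Their 250 bases before the RefSeq start hold no annotated exon base. The same is so for Chrna3 and for 1 of the 2 Chrna5 windows. The promoters shown are from RefSeq (GRCm38.p6), written 5′ to 3′ with motif matches in capitals. Chrm4 is at chr2:91921939-91922188 on the plus strand and Chrnb2 at chr3:89764633-89764882 on the minus strand.
Chrm4: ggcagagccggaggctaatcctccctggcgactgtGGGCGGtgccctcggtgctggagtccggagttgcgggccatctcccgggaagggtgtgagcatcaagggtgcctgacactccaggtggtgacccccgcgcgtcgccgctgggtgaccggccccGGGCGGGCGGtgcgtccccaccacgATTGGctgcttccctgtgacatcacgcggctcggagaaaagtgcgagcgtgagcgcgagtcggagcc
Chrnb2: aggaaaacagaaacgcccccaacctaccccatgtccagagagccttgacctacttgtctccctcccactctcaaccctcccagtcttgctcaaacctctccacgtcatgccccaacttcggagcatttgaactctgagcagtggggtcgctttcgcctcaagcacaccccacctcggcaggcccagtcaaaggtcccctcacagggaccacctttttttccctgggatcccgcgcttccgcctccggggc
Both strands were searched for 6 motifs. GGGCGG is the GC box and CCAAT the CCAAT box. TGACGTCA is the cAMP response element and CAGCTG an E-box. TTCAGCACC is the left half-site of the repressor element RE1 and GGACAGC its right half-site. Chrm4 held the GC box in 3 places, 2 of them overlapping, and CCAAT once on the opposite strand, while Chrnb2 held none of the 6 motifs. RefSeq promoters were matched for 8 of the 9 genes, all but Chrm1, with 2 windows for Chrna5 and so 9 windows in all. Of the 9 windows 6 held a GC box, 1 of the 2 Chrna5 windows among them, against 32.7% of 32851 promoter windows of the same length. In 2 there was CCAAT, against 33.8%. The share of G and C bases was 40% in the Chrna5 window without a GC box, 50% in Chrm2 and 59.6% to 74.4% in the rest. All windows had a median of 52.4%, and the part of this difference in the GC box matches was not tested. No other motif of the 6 was in any of the 9 windows, against 1.55%, 13%, 0.301% and 5.28% of all windows for the cAMP response element, the E-box and the left and right RE1 half-sites. These matches describe letters, and nothing about a factor follows from them.

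Chrna4 (ENSMUSG00000027577, chromosome 2, 181018380 to 181043546, minus strand) encodes the ligand-binding α4 subunit. It was at 22.0, 48.4 and 38.7 CPM in Il17rb-Cre libraries, at 3.15, 8.23 and 12.5 CPM in Il17ra-Cre libraries, and at 9.01, 11.1, 12.4 and 12.6 CPM in Il17rc-Cre libraries. Il17rb-Cre stood above both others, although its own libraries differed by more than those of Il17rc-Cre. The log2 fold change was 2.18 ± 0.46 against Il17ra-Cre (edgeR adjusted p = 0.00383) and 1.69 ± 0.41 against Il17rc-Cre (edgeR adjusted p = 0.00844).

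Chrnb2 (ENSMUSG00000027950, chromosome 3, 89746195 to 89764632, minus strand) encodes the β2 subunit that assembles with α4. It was at 11.1, 17.4 and 11.7 CPM in Il17rb-Cre libraries, at 2.35, 2.68 and 7.14 CPM in Il17ra-Cre libraries, and at 4.40, 5.04, 3.32 and 2.69 CPM in Il17rc-Cre libraries. As for its partner, the lowest Il17rb-Cre library was above every library of the other groups. The log2 fold change was 1.71 ± 0.45 against Il17ra-Cre (edgeR adjusted p = 0.0125) and 1.79 ± 0.41 against Il17rc-Cre (edgeR adjusted p = 0.00650). Chrnb2 shares 1365 exon bases, 16.3% of its exon length, with Adar, an RNA-editing enzyme gene, so part of its count cannot be assigned with certainty. Adar was at 60.5 ± 20.9 CPM in Il17rb-Cre, 68.5 ± 16.8 in Il17ra-Cre and 71.3 ± 14.6 in Il17rc-Cre, with no called difference.

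Chrna7 (ENSMUSG00000030525, chromosome 7, 63098692 to 63212569, minus strand) encodes α7, the subunit of the calcium-permeable homomeric receptor. It was at 2.68, 5.02 and 3.69 CPM in Il17rb-Cre libraries, at 0, 0.716 and 0.744 CPM in Il17ra-Cre libraries (0, 27 and 127 counts), and at 1.91, 2.42, 0.894 and 1.27 CPM in Il17rc-Cre libraries. The groups did not overlap, in the order Il17rb-Cre, Il17rc-Cre, Il17ra-Cre. Against Il17ra-Cre the log2 fold change was 2.93 ± 0.98 (edgeR adjusted p = 0.0354), a call lost without Il17ra-Cre library 2, Il17rc-Cre library 1 or any 1 Il17rb-Cre library, at 2.698 to 3.27. Against Il17rc-Cre it was 1.22 ± 0.84 (edgeR adjusted p = 0.274), with a 95% interval of -0.65 to 3.09.

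Chrna5 and Chrna3, which lie next to each other on chromosome 9 on opposite strands, were the scarcest of the 9. Chrna5 (ENSMUSG00000035594, 54980880 to 55007779) encodes an accessory subunit that is known to raise the calcium permeability of α4β2 receptors and to be typical of layer 6 neurons. It was at 1.61, 3.43 and 0.843 CPM in Il17rb-Cre libraries, at 0, 0 and 0.574 CPM in Il17ra-Cre libraries (0, 0 and 98 counts), and at 0.761, 0.208, 0.480 and 0.482 CPM in Il17rc-Cre libraries. A count of 0 allows up to 0.0809 CPM in Il17ra-Cre library 1 and 0.0796 CPM in library 2, at 3 counts each and for counting error only. The Il17rb-Cre libraries were above all others, but neither difference passed the test, with log2 fold changes of 3.21 ± 1.35 against Il17ra-Cre (edgeR adjusted p = 0.0822) and 2.02 ± 1.17 against Il17rc-Cre (edgeR adjusted p = 0.195). The first passed without Il17ra-Cre library 3, a fit in which every Il17ra-Cre library is at 0 and the fitted fold change of 9.88 on the log2 scale depends on the prior count. It also passed with DESeq2 at 3.32 and with limma voom at 6.55. The second passed in the fit without Il17ra-Cre library 3, at 2.03, without Il17ra-Cre libraries 1 and 2, at 1.96, and in the fit of only these groups, at 1.91.

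Chrna3 (ENSMUSG00000032303, 55010111 to 55026562) encodes α3, the ligand-binding subunit of ganglionic receptors. It was at 0.638, 0.734 and 0.572 CPM in Il17rb-Cre libraries, at 0, 0.106 and 0.603 CPM in Il17ra-Cre libraries, and at 0.144, 0.540, 0.0133 and 0.227 CPM in Il17rc-Cre libraries. Il17ra-Cre library 3 fell within the Il17rb-Cre range, and the Il17rc-Cre libraries lay below it. The log2 fold changes of 1.38 ± 1.31 against Il17ra-Cre (edgeR adjusted p = 0.432) and 1.48 ± 1.21 against Il17rc-Cre (edgeR adjusted p = 0.359) did not pass. In the libraries above 0 outside Il17rb-Cre the gene had 1 to 103 counts.

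Levels of different genes were set side by side per kb of exon (CPM per kb). In Il17rb-Cre, Chrm1 led at 29.9 ± 5.51 CPM per kb (SD, n = 3), above Chrna4 at 7.24 ± 2.66 and Chrm4 at 7.21 ± 1.14, which overlapped. Chrm3 followed at 3.06 ± 0.32, then Chrm2 at 2.02 ± 0.21 and Chrnb2 at 1.60 ± 0.42, which overlapped, then Chrna7 at 0.843 ± 0.260 and Chrna5 at 0.628 ± 0.425, which overlapped, and last Chrna3 at 0.123 ± 0.0155. Il17rc-Cre kept the same order of means, with Chrm1 at 7.41 ± 1.30, Chrna4 at 2.25 ± 0.33 and Chrm4 at 2.08 ± 0.79 CPM per kb, and every neighbour from Chrm3 downwards overlapped. In Il17ra-Cre, Chrm1 led at 4.98 ± 1.95 CPM per kb and every gene overlapped with the next. The exon model of Chrm4 holds only 1440 bases, nearly all of them coding, and RefSeq places its start 5060 bases upstream, so its level is per coding length and may stand higher than it would with its untranslated exons.

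The muscarinic share of the family, and the shares of Chrna4 and Chrm1 in their classes, overlapped between all groups. Muscarinic genes made 77.5% to 83.5% of the summed CPM per kb of the 9 genes in Il17rb-Cre, 75.7% to 81.6% in Il17ra-Cre and 72.5% to 80.1% in Il17rc-Cre. Chrna4 took 63.1% to 74.8% of the nicotinic sum in Il17rb-Cre, 65.5% to 76.6% in Il17ra-Cre and 59.5% to 76.7% in Il17rc-Cre. Chrm1 took 68.0% to 73.3% of the muscarinic sum in Il17rb-Cre and 65.9% to 71.0% in Il17rc-Cre, but 71.8%, 70.2% and 56.8% in Il17ra-Cre libraries 1 to 3. In library 3 Chrm4 took 27.3%, the most of all 10 libraries, against 11.7% and 16.3% in the other two.

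A different balance of the lesser muscarinic genes was seen in Il17ra-Cre. Chrm3 made 15.6%, 12.3% and 13.0% of the muscarinic sum there, above 6.35% to 8.72% in Il17rb-Cre and 5.75% to 10.1% in Il17rc-Cre. Chrm2 made 0.999%, 1.27% and 2.91% in Il17ra-Cre, against 4.51% to 5.27% in Il17rb-Cre and 2.83% to 9.69% in Il17rc-Cre. Neither share of Il17ra-Cre overlapped with that of Il17rb-Cre. Chrna7, at low counts, made 0% to 7.44% of the nicotinic sum in Il17ra-Cre. It made 7.92% to 8.60% in Il17rb-Cre, without overlap, and 6.15% to 15.3% in Il17rc-Cre. No test was run on these shares.

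**Figure D2:**
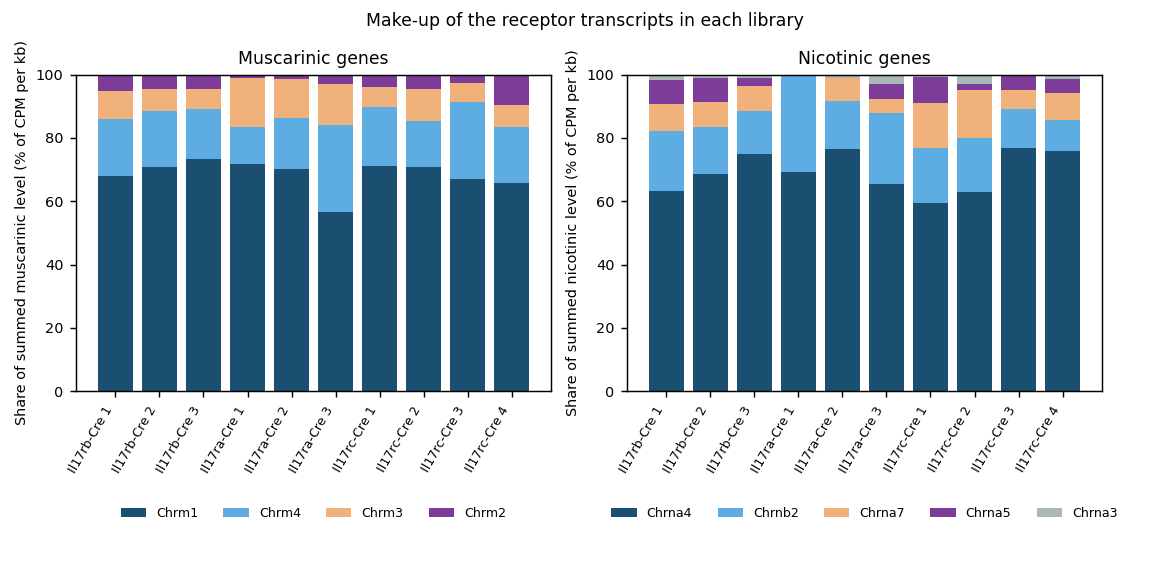
Share (vertical axis, percent) of each gene in the summed CPM per kb of the muscarinic genes (left) and the nicotinic genes (right), with 1 stacked bar per library. Chrm1 and Chrna4 take the largest share of their class in all 10 libraries, and Chrm1 is lowest in Il17ra-Cre library 3, at 56.8%.

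Il17ra-Cre and Il17rc-Cre differed less from each other. None of the 9 genes was called by edgeR, where 2.18% of all tested genes were, 1.38% as higher and 0.798% as lower. At an unadjusted p under 0.05 there was 1, Chrm2, with a log2 fold change of -1.68 ± 0.61 (95% interval -3.04 to -0.32, edgeR adjusted p = 0.174), and its groups did not overlap. DESeq2 called 1 gene, Chrm2, and limma voom called 2, Chrm1 and Chrm2, all as lower in Il17ra-Cre. Both called far more of all tested genes than edgeR did, with totals given in the last section. Without Il17ra-Cre library 3, edgeR also called 2, Chrm2 at -2.96 and Chrna5, beside 2886 of all tested genes. The Chrna5 fold change there is not a bound, since the other Il17ra-Cre libraries are at 0. Chrna7 was at -1.71 ± 0.90 with no overlap between groups and an interval of -3.72 to 0.30 (edgeR adjusted p = 0.356). The other 7 genes overlapped, at log2 fold changes of -1.18 to 0.44, and their intervals all included 0.

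The receptor differences stood beside a difference in neuronal content in the same direction. The 9 receptor genes had median log2 fold changes of 2.18 against Il17ra-Cre and 1.79 against Il17rc-Cre. The 12 pan-neuronal markers were at a median log2 fold change of 1.61 against Il17ra-Cre, with 9 called higher and 1 lower, and of 1.62 against Il17rc-Cre, with 10 called higher. The 12 excitatory markers had medians of 1.99 and 2.06, with 10 and 11 called higher, and all 12 astrocyte markers were called lower in both comparisons. When libraries were scaled on the summed pan-neuronal counts in place of TMM, a scaling added after these sums were known, the median of all tested genes moved to -1.63 and -1.85. Under it 2 of the 9 genes were called higher in Il17rb-Cre than in Il17ra-Cre, Chrm1 at 1.08 ± 0.25 and Chrm2 at 2.18 ± 0.64, and 0 of 9 against Il17rc-Cre. Of all tested genes 67.0% and 73.8% were then called in these comparisons, 1.13% and 0.202% as higher and 65.9% and 73.6% as lower. The other genes were at -0.0048 (Chrna3) to 1.86 (Chrna5) against Il17ra-Cre, with Chrm3 at 0.07 and Chrnb2 at 0.25, and did not pass. Against Il17rc-Cre the estimates ran from -0.62 (Chrna7) to 0.16 (Chrna5), with Chrm1 at 0.15, Chrm3 at 0.15, Chrm2 at 0.01, Chrnb2 at -0.05, Chrm4 at -0.07 and Chrna4 at -0.19. How much of the receptor differences goes with the number of neurons in each pull-down was not tested.

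**Figure D3:**
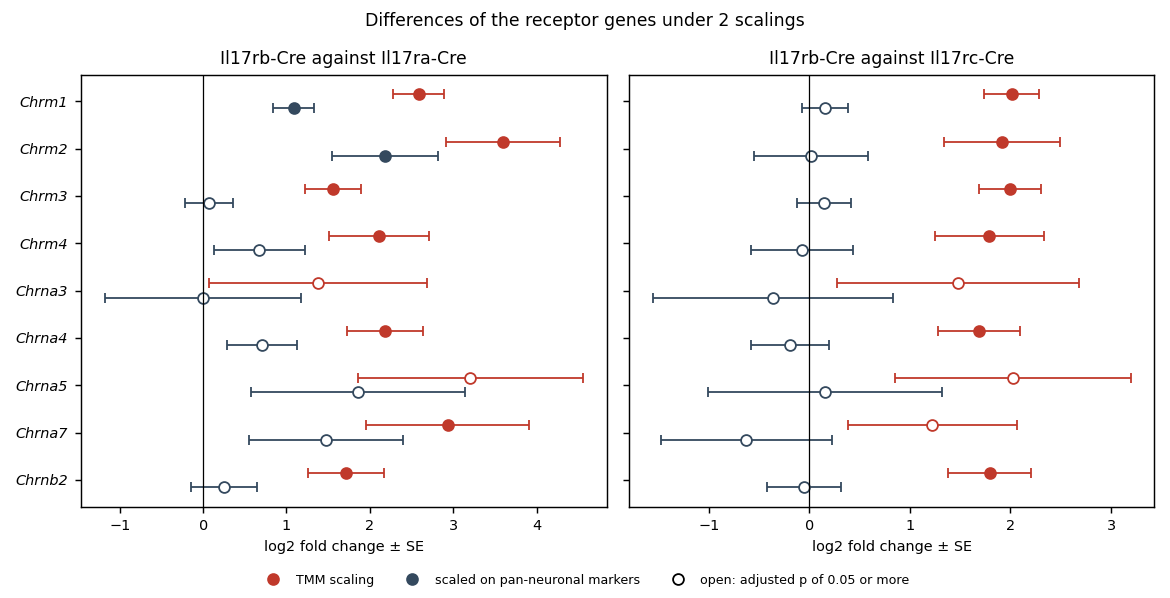
Log2 fold change ± SE (horizontal axis) of the 9 receptor genes for Il17rb-Cre against Il17ra-Cre (left) and against Il17rc-Cre (right), scaled by TMM (red) or on the pan-neuronal markers (dark), with filled points for an edgeR adjusted p under 0.05. Under the second scaling the right-hand estimates gather around 0 and only Chrm1 and Chrm2 remain filled on the left.

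Each marker sum leaned on 1 or 2 genes. Tubb3, a neuronal tubulin gene, made 3.23% to 3.37% of the pan-neuronal sum in Il17rb-Cre and 4.37% to 9.12% in Il17rc-Cre, but 53.5%, 39.6% and 6.58% in Il17ra-Cre libraries 1 to 3. Chrm1 was at 8.76, 12.8 and 11.6 CPM per 1000 CPM of the pan-neuronal list in the Il17rb-Cre libraries, against 3.43, 5.90 and 6.32 in the Il17ra-Cre libraries. Without Tubb3 in the list, an omission chosen after its values were seen, Chrm1 was at 9.06, 13.3 and 12.02 in Il17rb-Cre and at 7.37, 9.76 and 6.77 in Il17ra-Cre, and the groups overlapped. Per 1000 CPM of the excitatory list they overlapped too, at 10.0 ± 2.57 in Il17rb-Cre and 11.2 ± 5.59 in Il17ra-Cre. Snap25, a synaptic fusion protein gene, made 58.3% to 59.99% of the pan-neuronal sum in Il17rb-Cre, 20.95% to 48.5% in Il17ra-Cre and 39.9% to 50.02% in Il17rc-Cre. Nrgn, the gene of the calmodulin-binding neurogranin, made 76.0% to 83.7% of the excitatory sum in Il17rb-Cre, 61.6% to 74.2% in Il17ra-Cre and 54.0% to 72.1% in Il17rc-Cre. A level per excitatory CPM is thus largely a level per Nrgn CPM.

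Chrm2 did not overlap between Il17rb-Cre and Il17ra-Cre under any denominator, although the gap between the group means was narrower than in CPM, where they were 12.2 and 0.972. Per 1000 CPM of the pan-neuronal list it was at 0.634, 0.787 and 0.667 in the Il17rb-Cre libraries and at 0.0445, 0.0997 and 0.303 in the Il17ra-Cre libraries. Without Tubb3 the means were 0.720 ± 0.083 in Il17rb-Cre and 0.195 ± 0.117 in Il17ra-Cre, and per 1000 CPM of the excitatory list 0.627 ± 0.109 and 0.236 ± 0.085 in these groups, with no overlap in either. The inhibitory markers, 12 genes that include those of cells known to make M2, summed to 1044 to 1108 CPM in Il17rb-Cre, 337 to 515 in Il17ra-Cre and 843 to 1214 in Il17rc-Cre, and their part in the Chrm2 values was not tested. Of the 9 genes, Chrm2 was the only one above Il17ra-Cre in all libraries under all 3 denominators. Chrm3 was below Il17ra-Cre in all libraries under the list without Tubb3 and under the excitatory list, at 0.979 ± 0.138 in Il17rb-Cre and 2.13 ± 0.79 in Il17ra-Cre in the last. Chrnb2 was also below Il17ra-Cre in all libraries under the excitatory list, at 0.691 ± 0.219 in Il17rb-Cre and 1.20 ± 0.208 in Il17ra-Cre. Against Il17rc-Cre, all 9 genes overlapped under the pan-neuronal list with or without Tubb3, and none was above it in all libraries under the excitatory list. Chrm1, Chrm3 and Chrm4 were below Il17rc-Cre in all libraries under that list. Chrm1 was at 10.0 ± 2.57 in Il17rb-Cre and 15.03 ± 1.91 in Il17rc-Cre, Chrm3 at 0.979 ± 0.138 in Il17rb-Cre and 1.55 ± 0.603 in Il17rc-Cre, and Chrm4 at 0.534 ± 0.118 in Il17rb-Cre and 0.907 ± 0.163 in Il17rc-Cre. These denominators give levels with no test. The receptor genes found above, below or overlapping are not set against the share of all tested genes so placed.

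**Figure D4:**
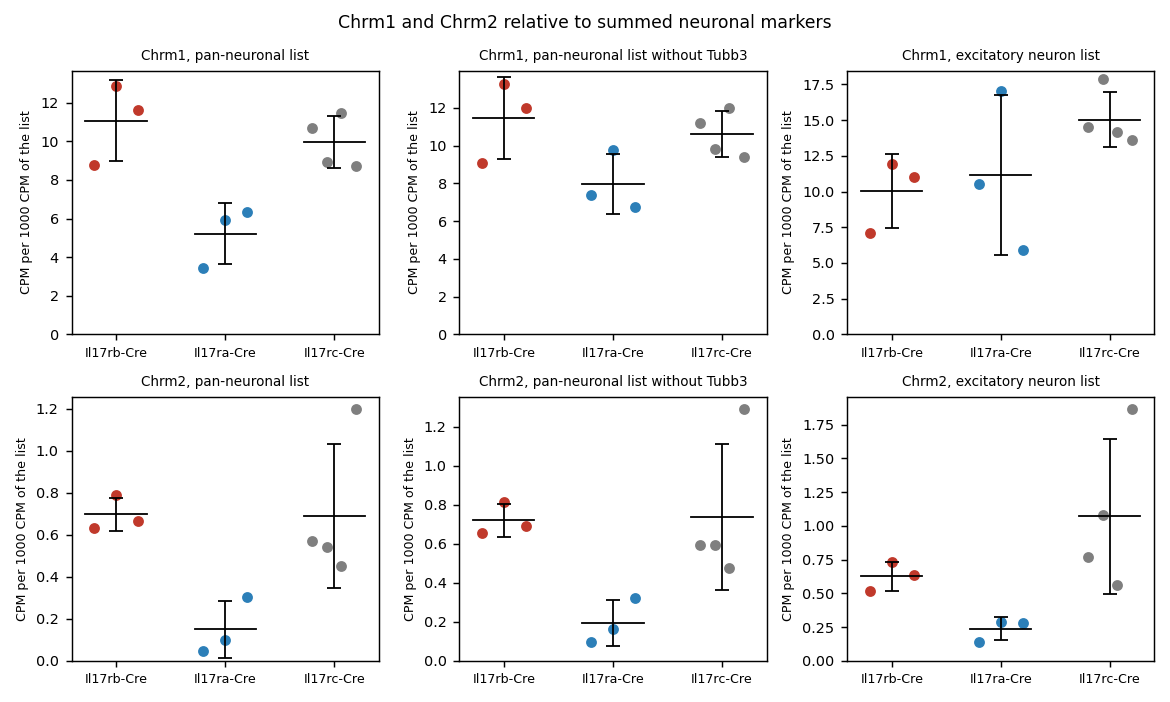
CPM of Chrm1 (top) and Chrm2 (bottom) per 1000 CPM of 3 summed marker lists (vertical axes, linear, from 0) by Cre group, with 1 point per library, the mean as a line and bars of 1 SD. Chrm2 is lower in all Il17ra-Cre libraries than in any Il17rb-Cre library in all 3 panels, whereas Chrm1 separates these groups only in the first. Neither is set against the share of all tested genes without overlap.

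Several calls were lost when libraries were left out in pairs, which leaves fewer libraries for every other gene too. The calls below are not set against the share of all tested genes called in those fits, so their loss is not shown to be particular to the receptors. Without Il17ra-Cre libraries 1 and 2 together, 3 of the 9 genes were called higher in Il17rb-Cre than in the single library left, whose spread was taken from the other groups: Chrm1 at 2.17 ± 0.33, Chrm2 at 2.56 ± 0.54 and Chrna4 at 1.55 ± 0.45. Chrm3, Chrm4, Chrna7 and Chrnb2 were then at 1.00, 1.17, 2.37 and 0.92 and did not pass. Without Il17rc-Cre libraries 1 and 3 together, 3 of the 9 were called higher in Il17rb-Cre than in Il17rc-Cre: Chrm1 at 2.18 ± 0.36, Chrm3 at 1.89 ± 0.42 and Chrm4 at 2.22 ± 0.71. Chrm2, Chrna4 and Chrnb2 were then at 1.58, 1.58 and 1.75 and did not pass.

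The other 12 acetylcholine receptor genes averaged at most 1.52 CPM in any group. Of them 7 passed the filter, and edgeR with TMM scaling on all 10 libraries called 0 in any comparison, with 2, 2 and 0 at an unadjusted p under 0.05 for Il17rb-Cre over Il17ra-Cre, Il17rb-Cre over Il17rc-Cre and Il17ra-Cre over Il17rc-Cre. Chrnb3 was called higher in Il17rb-Cre than in Il17ra-Cre by DESeq2, by limma voom, and by edgeR with the replicate block, without Il17ra-Cre library 3 or without Il17rc-Cre library 4. Chrnb1, a subunit of muscle receptors, was at 0.353 ± 0.354 CPM in Il17rb-Cre, 1.08 ± 0.544 in Il17ra-Cre and 1.34 ± 1.06 in Il17rc-Cre, and edgeR called it lower in Il17rb-Cre than in Il17rc-Cre without Il17rb-Cre library 3. Under pan-neuronal scaling edgeR called Chrnb1 and Chrnb4 lower in Il17rb-Cre than in both other groups, as it did most genes. Chrna1, another muscle subunit gene, was at 0.804 ± 0.340 CPM in Il17rb-Cre, 0.375 ± 0.212 in Il17ra-Cre and 0.228 ± 0.139 in Il17rc-Cre and was not called. Chrnb4, the usual partner of α3 in ganglia, had no count in any Il17rb-Cre library, which allows up to 0.0400 to 0.0563 CPM per library. It had 0, 5 and 52 counts in the Il17ra-Cre libraries and 12, 24, 0 and 0 in the Il17rc-Cre libraries. Chrm5, the fifth muscarinic gene, had 6 counts in Il17rc-Cre library 1 and 0 in the other 9 libraries. Chrna6 reached 19, 152 and 57 counts in the Il17rb-Cre libraries, a mean of 1.07 ± 0.864 CPM, and Chrnb3 32, 104 and 180, a mean of 1.52 ± 0.993 CPM, both of them subunits known mainly from midbrain dopamine and retinal neurons. The remaining libraries held 0 to 26 counts of Chrna6 and 0 to 86 of Chrnb3.

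Few genes of acetylcholine turnover were called, in shares not far from the background. Of 7 genes listed, 6 were tested. In Il17rb-Cre 2 were called higher and 1 lower than in Il17ra-Cre, beside 16.4% and 24.4% of all tested genes, and 1 higher and 0 lower than in Il17rc-Cre, beside 17.7% and 21.9%. Ache, the enzyme that breaks down acetylcholine, was at 34.4, 48.9 and 47.9 CPM in Il17rb-Cre libraries, at 8.36, 15.9 and 20.2 in the Il17ra-Cre libraries, and at 20.2, 23.4, 18.3 and 16.1 in the Il17rc-Cre libraries. Under TMM scaling it rose in Il17rb-Cre over both, by 1.56 ± 0.31 on the log2 scale against Il17ra-Cre (edgeR adjusted p = 0.00274) and by 1.17 ± 0.28 against Il17rc-Cre (edgeR adjusted p = 0.00783), which turned to -0.69 on the pan-neuronal scale. Prima1, which anchors acetylcholinesterase in the membrane, was at 0.488, 0.160 and 0.429 CPM in Il17rb-Cre libraries and at 16.5, 12.7 and 1.44 CPM in Il17ra-Cre libraries. It fell against Il17ra-Cre by 4.83 ± 0.90 on the log2 scale (edgeR adjusted p = 0.00209) and was at -1.41 ± 0.77 against Il17rc-Cre (edgeR adjusted p = 0.170). Its high values lay in Il17ra-Cre libraries 1 and 2, those with the highest oligodendrocyte markers, whose part was not tested. Chat, the synthesizing enzyme, had 63, 1 and 103 counts in the Il17rb-Cre libraries and 0 in all 3 Il17ra-Cre libraries, and was the second gene called higher. With 1 count in Il17rb-Cre library 2, that call is uneven within the group.

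Among 11 genes of nicotinic receptor assembly and modulation, 2 were called higher and 1 lower in Il17rb-Cre than in Il17ra-Cre, and 3 higher and 1 lower than in Il17rc-Cre. Of all tested genes 16.4% and 17.7% were called higher in these comparisons and 24.4% and 21.9% lower. Lynx1, a membrane-anchored brake on α4β2 and α7 receptors, rose in both, at 327 CPM on average in Il17rb-Cre, 120 in Il17ra-Cre and 126 in Il17rc-Cre. Its log2 fold changes were 1.45 ± 0.28 against Il17ra-Cre (edgeR adjusted p = 0.00256) and 1.38 ± 0.26 against Il17rc-Cre (edgeR adjusted p = 0.00201), or -0.04 and -0.49 in that order when scaled on the pan-neuronal markers. Lypd6, a related modulator of nicotinic receptors, fell against Il17rc-Cre, at 9.99 CPM in Il17rb-Cre and 27.9 in Il17rc-Cre, by 1.48 ± 0.26 on the log2 scale (edgeR adjusted p = 0.00148). Against Il17ra-Cre it was at -0.53 ± 0.27 and did not pass.

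Most genes of the Gq arm were higher in Il17rb-Cre under TMM scaling, as were Chrm1 and Chrm3, but not under scaling on the pan-neuronal markers, where none of the arm was called higher. Of 14 genes listed for this arm, 12 were called higher and 1 lower in both comparisons, with medians of 1.20 against Il17ra-Cre and 1.15 against Il17rc-Cre, beside 16.4% and 17.7% of all tested genes called higher and 24.4% and 21.9% lower. Plcb1, the phospholipase C of cortical M1 signalling, was at 162, 147 and 173 CPM in Il17rb-Cre libraries, 46.4, 67.6 and 84.2 in the Il17ra-Cre libraries and 78.3 to 85.3 in the Il17rc-Cre libraries. On the log2 scale it rose by 1.28 ± 0.20 against Il17ra-Cre and by 0.97 ± 0.18 against Il17rc-Cre (edgeR adjusted p = 7.72e-04 and 0.00225). Plcb4, another phospholipase C, rose by 1.79 ± 0.18 against Il17ra-Cre and 1.41 ± 0.16 against Il17rc-Cre, and Prkcb, a protein kinase C, by 1.80 ± 0.19 and 1.62 ± 0.17 in these comparisons. Gnaq, the α subunit itself, rose by only 0.58 ± 0.17 against Il17ra-Cre and 0.74 ± 0.16 against Il17rc-Cre and lost the first call without Il17rb-Cre library 3, at 0.56. On the pan-neuronal scale Gnaq turned to -0.95 and Plcb1 to -0.23 against Il17ra-Cre and to -1.13 and -0.91 against Il17rc-Cre, and Plcb4 and Prkcb turned to -0.46 and -0.25 against Il17rc-Cre.

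Plcb3 was the gene of that arm that moved the other way. It was at 0.413, 1.31 and 2.32 CPM in Il17rb-Cre libraries, at 37.2, 36.0 and 12.3 CPM in Il17ra-Cre libraries, and at 47.0, 25.9, 38.8 and 35.6 CPM in Il17rc-Cre libraries. With no overlap, it fell by 4.39 ± 0.62 on the log2 scale against Il17ra-Cre (edgeR adjusted p = 4.64e-04) and by 4.76 ± 0.62 against Il17rc-Cre (edgeR adjusted p = 2.63e-04). Plcb3, Plcb1 and Plcb4 encode phospholipases C of the same family. On the pan-neuronal scale Plcb3 stayed lower, at -5.99 against Il17ra-Cre and -6.64 against Il17rc-Cre.

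The Gi/o arm was split as well. Of 14 genes, 8 were called higher and 2 lower in both comparisons, with medians of 1.21 and 0.99, beside 16.4% and 17.7% of all tested genes called higher and 24.4% and 21.9% lower. Gnai1 was at 263, 299 and 305 CPM in Il17rb-Cre libraries, 118 to 134 in the Il17ra-Cre libraries and 87.5 to 116 in the Il17rc-Cre libraries, and rose by 1.21 ± 0.15 against Il17ra-Cre and 1.55 ± 0.14 against Il17rc-Cre (edgeR adjusted p = 2.34e-04 and 2.72e-05). Gnai2 was at 139, 138 and 141 CPM in Il17rb-Cre libraries, 674, 613 and 455 in the Il17ra-Cre libraries and 509 to 680 in the Il17rc-Cre libraries, and fell by 2.06 ± 0.18 against Il17ra-Cre and 2.13 ± 0.17 against Il17rc-Cre (edgeR adjusted p = 3.12e-05 and 1.50e-05). Gnai3 fell with it, at 29.4 CPM on average in Il17rb-Cre, 81.9 in Il17ra-Cre and 80.9 in Il17rc-Cre. All 3 encode α subunits of Gi. Gnaz, a further α subunit of the Gi class found mainly in neurons, rose by 1.95 ± 0.39 against Il17ra-Cre and 1.68 ± 0.35 against Il17rc-Cre. On the pan-neuronal scale Gnai1 turned to -0.35 against Il17ra-Cre and -0.32 against Il17rc-Cre, and Gnaz to -0.18 in the second comparison, while Gnai2 and Gnai3 stayed lower.

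Channel genes of this arm were higher with the receptors under TMM scaling. Kcnj3, the GIRK1 subunit, was at 46.3, 47.9 and 42.7 CPM in Il17rb-Cre libraries, 6.87, 10.6 and 17.3 in the Il17ra-Cre libraries and 9.96 to 14.3 in the Il17rc-Cre libraries. The log2 rise was 1.97 ± 0.30 against Il17ra-Cre and 1.97 ± 0.28 against Il17rc-Cre (edgeR adjusted p = 7.29e-04 and 3.85e-04). Kcnj9, the GIRK3 subunit, rose by 2.27 ± 0.35 against Il17ra-Cre and 2.04 ± 0.32 against Il17rc-Cre. Both kept a positive sign on the pan-neuronal scale, Kcnj3 at 0.48 and Kcnj9 at 0.78 against Il17ra-Cre and at 0.11 and 0.17 against Il17rc-Cre, and only Kcnj9 against Il17ra-Cre passed. Under pan-neuronal scaling the Gq arm had 0 genes called higher in either comparison and 5 and 9 called lower, and the Gi/o arm had 1 and 0 called higher and 5 and 7 called lower. With 65.9% of all tested genes called lower against Il17ra-Cre and 73.6% against Il17rc-Cre under that scaling, the lower calls of both arms were a smaller share than those of all genes.

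**Figure D5:**
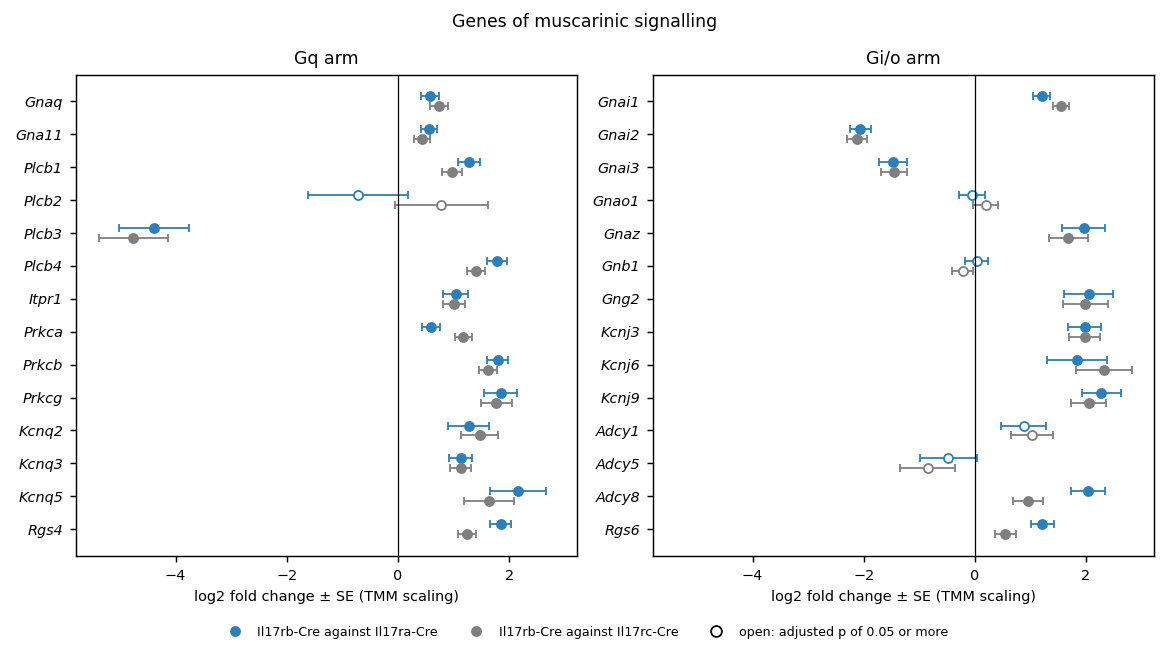
Log2 fold change ± SE (horizontal axis, TMM scaling) of the 14 genes of the Gq arm (left) and the 14 of the Gi/o arm (right), for Il17rb-Cre against Il17ra-Cre (blue) and against Il17rc-Cre (grey), with filled points for an edgeR adjusted p under 0.05. Plcb3, Gnai2 and Gnai3 lie far to the left while most other genes lie to the right of 0.

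The genes whose levels ran most like those of each receptor were found by the root-mean-square difference of centred log2 CPM over the 10 libraries, a description with no test in which the points share their libraries and cell mix. Chrm3 was closest to Coro1a, an actin-binding protein gene (0.10), Chrm4 to C1qtnf4 (0.12) and Chrm1 to Olfm2 (0.15), followed by Bend6 and the calcium channel subunit gene Cacnb3 (0.16 each). Coro1a was at 332 to 351 CPM in Il17rb-Cre, 69.5, 119 and 168 in Il17ra-Cre libraries 1 to 3 and 69.1 to 106 in Il17rc-Cre. Chrnb2 was closest to Slc5a5 (0.18) and Chrna4 to the netrin receptor gene Unc5a (0.21). Chrm2 had no near match, its closest being the somatostatin receptor gene Sstr2 at 0.61. Chrna3, Chrna5 and Chrna7, with their low counts, had nearest genes at 0.88 to 0.91.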

How the data were processed

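TRAP libraries of 10 samples in 3 Cre groups were analysed. The deposited values are raw counts per gene, made by the authors from SMART-Seq v4 libraries per the labels' protocols, with reads aligned by STAR 2.7.5c to GRCm38 per the submitters' processing notes. Counter, strand setting and annotation release are not given in those sources, so reads of overlapping genes cannot be separated. As PCR without molecular identifiers was used, floors of 3 counts cover counting error only.

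All 55536 identifiers matched GENCODE M21 (GRCm38), which gave symbols, coordinates and union exon lengths. The expression filter of edgeR 4.0.16 (R 4.3.3) kept 20301 genes and removed 35235. The counts went into a quasi-likelihood F test after TMM normalization, with 1 model for the 10 libraries, and p-values were adjusted by Benjamini-Hochberg over every tested gene (threshold 0.05). The biological coefficient of variation was 0.489 (common dispersion 0.239). The edgeR procedure was also run on simulated counts with few changed genes and a common mean profile for all libraries. That setting lacks the differences in cell mix seen here, so it does not bear on the calls above. CPM values are TMM-scaled, with SD over libraries, and log2 fold changes have standard errors. A marker sum adds the CPM of the list's genes. Promoters came from RefSeq (GRCm38.p6).

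The receptor genes, gene lists and tests were chosen with earlier results of these data known. Named genes were the 9 receptors, members of the pathway and marker lists and, for each receptor, the 3 genes closest in centred log2 CPM among those averaging 3 or more. As alternatives the data were refitted with DESeq2 1.42.0 and with limma 3.58.1 (voom, quality weights), and in edgeR with upper quartile or DESeq2 size factors, without the filter or at 1 CPM in 3 libraries, on pairs of groups, with replicate numbers as a block, and leaving out libraries. Scaling on pan-neuronal markers and the other marker denominators were added after results were seen.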

Additional observations from a re-analysis of the deposited data

How the results depend on the processing

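Calls of receptor genes were 7 for Il17rb-Cre against Il17ra-Cre and 6 against Il17rc-Cre, and stayed within 1.5 times these under DESeq2, limma voom, other size factors, filters and 2-group fits. Leaving out each library in turn gave 5 to 8 and 4 to 7, with 6541 to 9916 and 5946 to 9151 of all tested genes called in these comparisons. Without Il17ra-Cre libraries 1 and 2 the first was 3, and without Il17rc-Cre libraries 1 and 3 the second was 3. Pan-neuronal scaling gave 2 and 0. Receptor calls with DESeq2, limma voom, other size factors, filters or 2-group fits are not set against all genes called in those fits. The same is so without Il17rc-Cre libraries 1 and 3. All genes called were 4192 for Il17rb-Cre against Il17ra-Cre without Il17ra-Cre libraries 1 and 2, and 13599 and 14988 in the 2 Il17rb-Cre comparisons under pan-neuronal scaling, which moved the median of all genes to -1.63 and -1.85.

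The 443 genes called between Il17ra-Cre and Il17rc-Cre depended on the settings. They became 2101 with DESeq2, 4579 with limma voom, 695 with the 1 CPM filter, 1 in the fit of only these groups, 1635 under pan-neuronal scaling, and 0 by edgeR without Il17ra-Cre libraries 1 and 2 or without Il17rc-Cre libraries 1 and 3, with 3121 and 2244 genes at an unadjusted p under 0.05. Leaving out each library in turn gave 0 to 2886, the highest without Il17ra-Cre library 3 and 0 by edgeR without Il17ra-Cre library 1, Il17ra-Cre library 2 or Il17rc-Cre library 3, with 2827, 2930 and 2856 genes at an unadjusted p under 0.05. Calls of receptor genes there were 1 with DESeq2, 2 with limma voom, 1 under pan-neuronal scaling and 0 to 2 with single libraries left out. Of the called genes 63.4% were higher in Il17ra-Cre, against 48.9% with DESeq2 size factors in edgeR and 46.5% with DESeq2. The cause of these changes was not tested.

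Across groups, deviations from the group mean correlated at -0.083 to 0.181 for libraries of the same replicate number. For libraries of different numbers the correlations were -0.195 to 0.084. With so few libraries these values cannot tell if the numbers mark samples handled together. With the replicate number as a block, 6 receptor genes were called in each Il17rb-Cre comparison, Chrna7 being lost against Il17ra-Cre, and 2 genes in all between Il17ra-Cre and Il17rc-Cre. With the library-name number as the block the last was 1. Receptor calls with the replicate block are not set against all genes called in the Il17rb-Cre comparisons. The loss of the Chrna7 call is thus not shown to be particular to that gene.

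Outside pan-neuronal scaling, the signs of receptor and named pathway genes that turned were of Il17ra-Cre against Il17rc-Cre differences that did not pass. The medians of the other receptor genes and of the turnover genes turned as well, to -1.09 and -0.52 against Il17ra-Cre with limma voom. Under that scaling Chrm4, Chrna3, Chrna4, Chrna7 and Chrnb2 were at -0.069, -0.36, -0.19, -0.62 and -0.055 against Il17rc-Cre, as were Ache at -0.69, Gnai1 at -0.32, Gnaq at -1.13, Gnaz at -0.18, Lynx1 at -0.49, Plcb1 at -0.91, Plcb4 at -0.46 and Prkcb at -0.25. Against Il17ra-Cre they were Chrna3 at -0.0048, Gnai1 at -0.35, Gnaq at -0.95, Lynx1 at -0.042 and Plcb1 at -0.23. Between Il17ra-Cre and Il17rc-Cre it gave -0.36 for Chrna3 and -0.30 for Chrnb2. In that comparison Chrna3, at 0.10, and Chrnb2, at 0.08, turned to -0.027 and -0.0067 with DESeq2, -0.0032 and -0.41 with limma voom, -0.0046 and -0.0093 with DESeq2 size factors, -0.16 and -0.16 with the replicate block, and -0.83 and -0.070 with the library-name block. With single libraries left out, Chrm4 ranged from -1.29 to 0.040, Chrna3 from -2.08 to 0.95 and Chrnb2 from -0.62 to 0.28. Without Il17ra-Cre libraries 1 and 2, Chrm4 was at 0.56, Chrna4 at 0.079 and Chrna5 at 0.18, and without Il17rc-Cre libraries 1 and 3, Chrm4 was at 0.10 and Chrna3 at -0.68.

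Chrna3, Chrna5 and Chrna7 had counts at or under 175 outside Il17rb-Cre. Chrna5 against Il17ra-Cre nevertheless passed with DESeq2 and limma voom on these counts, and what set the calls of this group of genes was not tested.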
